A study of Mus musculus with 4 samples.

Results

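The genes described are those of the cyclins, cyclin-dependent kinases and retinoblastoma protein that carry cells from G1 into S phase. They were chosen by symbol: 3 D cyclins (Ccnd1, Ccnd2, Ccnd3), 2 E cyclins (Ccne1, Ccne2), the A cyclin Ccna2, the kinases Cdk2, Cdk4 and Cdk6, and Rb1. All 10 had a row among the 41543 gene symbols counted, and all 10 were among the 16112 symbols expressed highly enough to be tested. The RNA came from E14TG2a, an established line of mouse embryonic stem (ES) cells, kept on gelatin in serum medium with the cytokine LIF, and its polyadenylated part was sequenced. The cells labelled KAT6A KO, edited by CRISPR/Cas9 at the gene of the histone acetyltransferase KAT6A, gave 2 libraries of 30185640 and 27494041 counts. The E14TG2a cells labelled Control gave 2 libraries of 35616899 and 37354623 counts. No source used here gives the site of the edit, the number of clones or whether replicates were separate cultures. The p-values therefore reflect the spread between these 4 libraries alone, and that spread may be technical.

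D cyclins bind CDK4 and CDK6 and the resulting kinases begin to phosphorylate RB1, which otherwise holds E2F transcription factors in check. Released E2F factors switch on E cyclins, A2 cyclin and the genes of DNA synthesis, and cyclin E with CDK2 completes the phosphorylation of RB1. Mouse ES cells are known for a short G1 phase, high cyclin E and CDK2 activity and little D cyclin. D cyclins increase when ES cells differentiate.

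The libraries had properties that bear on the values below. Kat6a, the targeted gene, was measured in CPM (read counts scaled to a common library size) at 242 and 86.4 in the libraries labelled KO replicates 1 and 2, against 145 and 143 CPM in the controls. Its RNA therefore lay above the controls in the first of these libraries, which goes against a loss of transcript, although a count over the whole gene does not check a short edit. The directions given here take the labels as deposited. The libraries labelled KO differed more from each other than the controls did, with an SD over genes of the log2 CPM difference of 0.50 against 0.29. Fold changes also followed the GC content of transcripts, from a median log2 fold change, KO over control, of -0.22 in the GC-poorest quintile of genes to 0.23 in the GC-richest. Genes of chromosome 11 had a median log2 fold change of -0.46, and none of the 10 genes lies there.

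In the libraries labelled KO, Ccnd2 and Ccne2 fell and Cdk4 rose, while the other 7 genes did not pass the test. Ccnd2 was 4.53-fold lower, Ccne2 was 1.76-fold lower and Cdk4 was 1.38-fold higher. Thus 1 of 10 rose and 2 of 10 fell under a 0.05 threshold on the adjusted p (edgeR quasi-likelihood test, Benjamini-Hochberg over all tested genes). Over all tested genes 5.76% rose and 8.57% fell. The median log2 fold change of the 10 genes was 0.08, and that of all tested genes was 0.01. Without the library labelled KO replicate 1 the counts were 5 that rose and 3 that fell, and without the library labelled KO replicate 2 they were 3 and 4. Over all genes these fits called 4020 and 4400, and 3532 and 3863, since only the controls then gave the spread. Without control replicate 1, 0 of the 10 rose and 2 fell, with 254 and 670 over all genes. Without control replicate 2, 0 of the 10 rose and 1 fell, with 278 and 648 over all genes. Both libraries labelled KO lay above both controls for 5 genes (Ccnd3, Ccna2, Cdk2, Cdk4 and Cdk6) and below both for 2 (Ccnd2 and Ccne2). These separations held for 31.5% and 32.8% of all tested genes in the same directions.

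**Figure D1:**
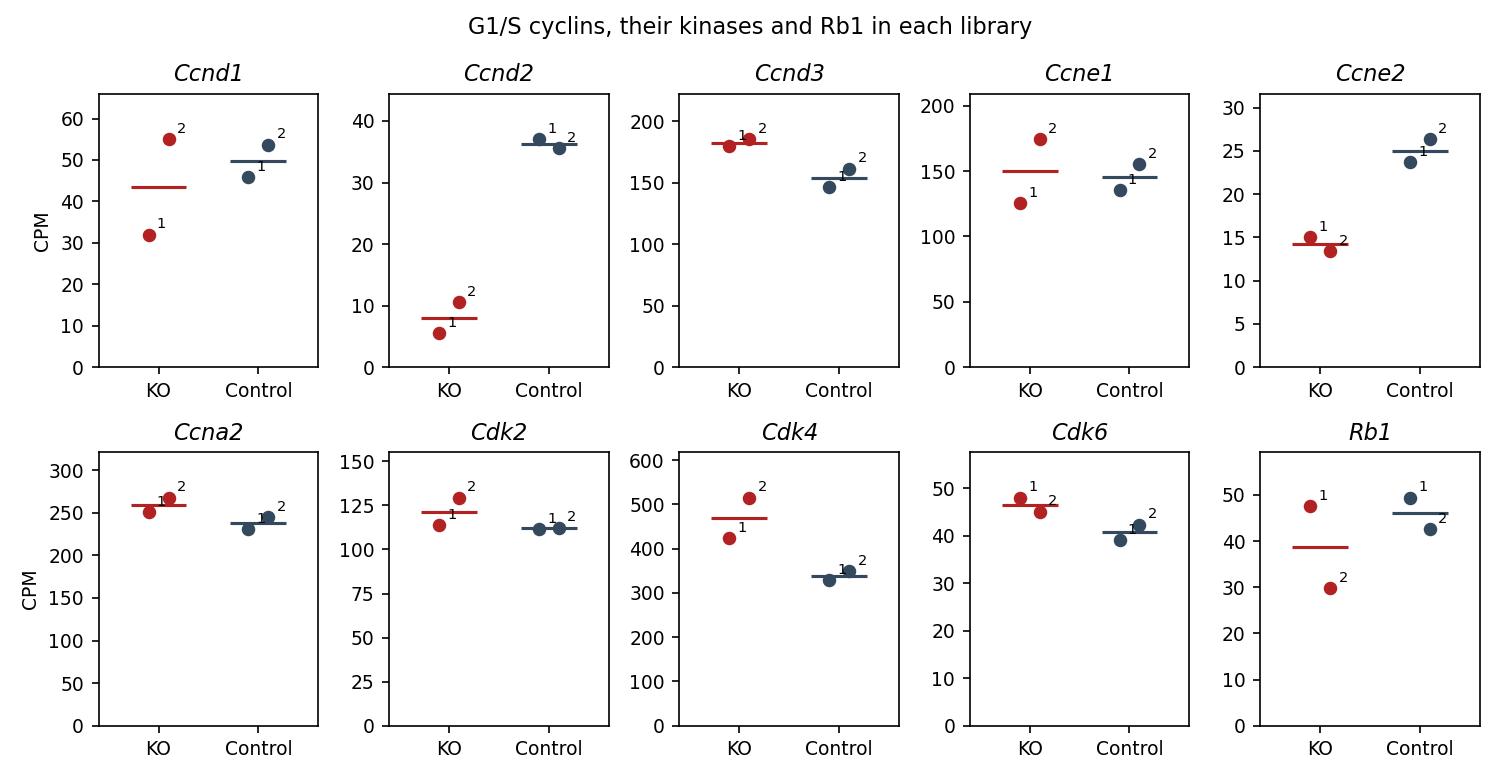
CPM of each gene (vertical axis, starting at 0) in the libraries labelled KO (left) and Control (right), with replicate numbers beside the points and a bar at the mean of each pair. In proportion, the pairs are furthest apart for Ccnd2, with 5.55 and 10.5 CPM in the libraries labelled KO, against 37.1 and 35.6 CPM in the controls.

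The D cyclins are the growth factor-responsive partners of CDK4 and CDK6. Ccnd2, on the minus strand of chromosome 6 at 127125162 to 127152193 (GRCm38, GENCODE M21), had 5.55 and 10.5 CPM in the libraries labelled KO replicates 1 and 2, against 37.1 and 35.6 CPM in control replicates 1 and 2. These values rest on 169 and 290 counts in the libraries labelled KO and 1317 counts in each control. The groups did not overlap, and replicate 1 was the lower of the libraries labelled KO. The log2 fold change was -2.18 ± 0.27 (SE, n = 2 each), with a 95% interval of -2.83 to -1.52 and an edgeR adjusted p of 0.0103. Each of the 4 libraries was also left out in turn. The log2 fold change then ran from -2.71, with the library labelled KO replicate 2 left out, to -1.78, with the library labelled KO replicate 1 left out. The authors' deposited table gives Ccnd2 a log2 fold change of -1.85 with an adjusted p of 4.37e-17. DESeq2 run here on the 4 libraries gave -2.17, and the cause of that difference was not tested.

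The other D cyclins did not pass the test. Ccnd3, on chromosome 17 at 47505051 to 47599691, had 179 and 185 CPM in the libraries labelled KO, against 146 and 162 CPM in the controls. Both libraries labelled KO lay above both controls, but the log2 fold change of 0.25 ± 0.09 (SE, n = 2 each) did not pass after adjustment (edgeR adjusted p = 0.106). Its transcript has a GC content of 56.7%, in the quintile whose median log2 fold change was 0.23, and with an offset for GC content its log2 fold change was 0.09. Ccnd1, on the minus strand of chromosome 7 at 144929931 to 144939925, had 32.0 and 55.0 CPM in the libraries labelled KO, against 45.8 and 53.7 CPM in the controls. The library labelled KO replicate 1 lay below both controls and the library labelled KO replicate 2 above both. Its log2 fold change was -0.19 ± 0.24 (SE, n = 2 each), with a 95% interval of -0.78 to 0.39 and an edgeR adjusted p of 0.607. Leaving out the library labelled KO replicate 2 gave -0.64, and leaving out the library labelled KO replicate 1 gave 0.14.

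The make-up of the D cyclin messages was described next. To compare genes, CPM was divided by the summed length of each gene's exons in kilobases. On this scale the summed level of the 3 D cyclins was 27.8 and 33.9 CPM per kilobase in the libraries labelled KO, against 30.3 and 33.6 in the controls, so the sums overlapped. Ccnd2 made up 2.12% and 3.30% of that sum in the libraries labelled KO, against 13.0% and 11.2% in the controls. Ccnd3 made up 73.5% and 62.3% in the libraries labelled KO, against 54.9% and 54.8% in the controls. The share of Ccnd1 overlapped, at 24.4% and 34.4% in the libraries labelled KO and 32.1% and 33.9% in the controls. With 2 libraries in each group an exact permutation test cannot go below a two-sided p of 0.333, so these shares carry no test.

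**Figure D2:**
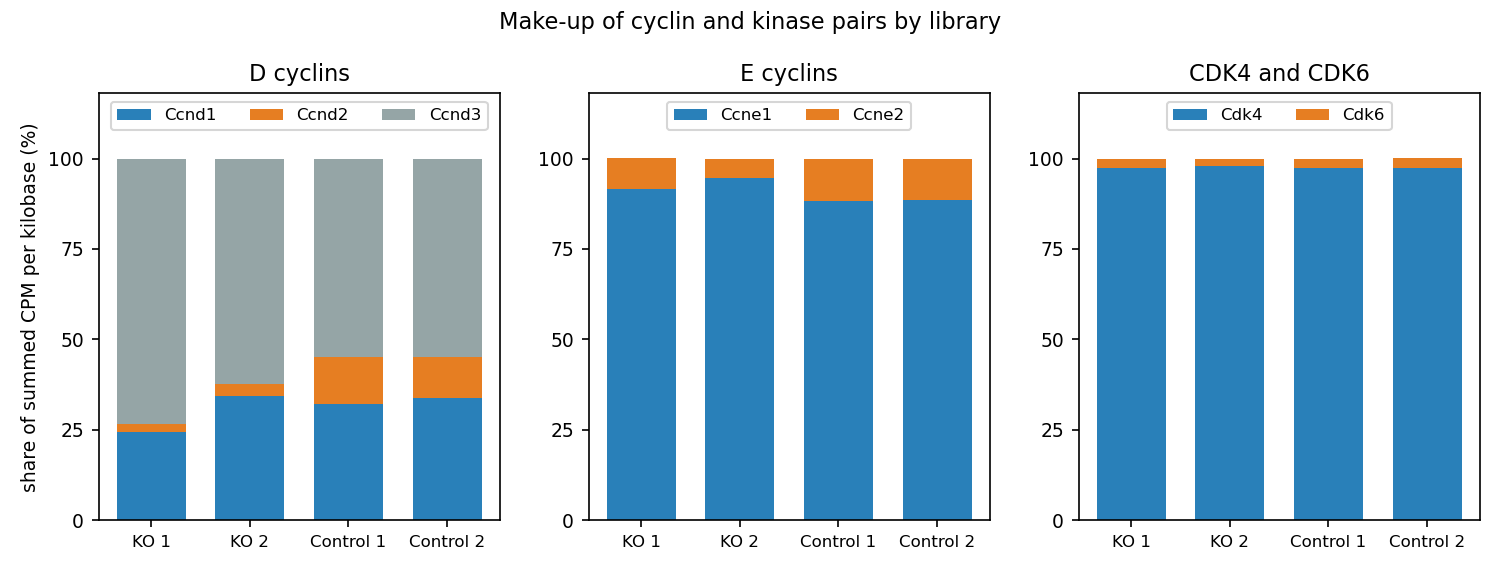
Share (%) of each gene in the summed CPM per kilobase of the D cyclins, the E cyclins and the pair of Cdk4 and Cdk6, by library, with the libraries labelled KO to the left of the controls. The segments of Ccnd2 and Ccne2 are smaller in both libraries labelled KO than in either control, and Cdk4 holds 97.3% to 98.0% of its pair in every library.

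Values of Ccnd2 across the 4 libraries were set beside those of markers of primitive endoderm, a cell type that ES cultures in serum can hold as a minority. By distance between log2 CPM profiles centred on each gene's mean, over 4 libraries and 13536 genes, the 3 genes nearest to Ccnd2 were St3gal1, which encodes a sialyltransferase, Pdgfra, a receptor of primitive endoderm, and Tns4, an adhesion protein gene on chromosome 11. Their distances were 0.21, 0.23 and 0.23 log2 units. Pdgfra had 5.62 and 12.2 CPM in the libraries labelled KO, against 35.1 and 34.2 CPM in the controls. Gata6, a regulator of primitive endoderm, was the next nearest gene, named after its values were seen, with 6.21 and 12.0 CPM in the libraries labelled KO, against 34.7 CPM in both controls. The distances of the 10 primitive endoderm markers on the list ran from 0.23 for Pdgfra to 1.06 for Dab2, an endocytic adaptor gene, which ranked 157 by nearness. All 10 markers of primitive endoderm on the list lay below both controls in both libraries labelled KO and were lowest in the library labelled KO replicate 1, as Ccnd2 was, and 7 of the 10 fell in the test. Over all tested genes, 32.8% lay below both controls and 8.57% fell. The share that also had its lowest value in the library labelled KO replicate 1 is not given here. Distances to Ccnd2 were not ranked for the marker lists of other cell types. The summed level of the 10 primitive endoderm markers was 869 and 1703 CPM in the libraries labelled KO, against 3894 and 3720 CPM in the controls. The part of this difference in the value of Ccnd2 was not tested, and in bulk samples fewer cells of a type and less RNA per cell cannot be told apart. All 10 ES cell markers on the list were expressed, with sums of 5956 and 6659 CPM in the libraries labelled KO, against 4954 and 5011 CPM in the controls, and 2 of them rose, Esrrb (log2 fold change 0.56, edgeR adjusted p = 0.0129) and Dppa5a (0.61, edgeR adjusted p = 0.0189). DESeq2 called 4 of them higher. Over all 16112 tested genes 5.76% rose by edgeR, and DESeq2 called 1132 higher.

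**Figure D3:**
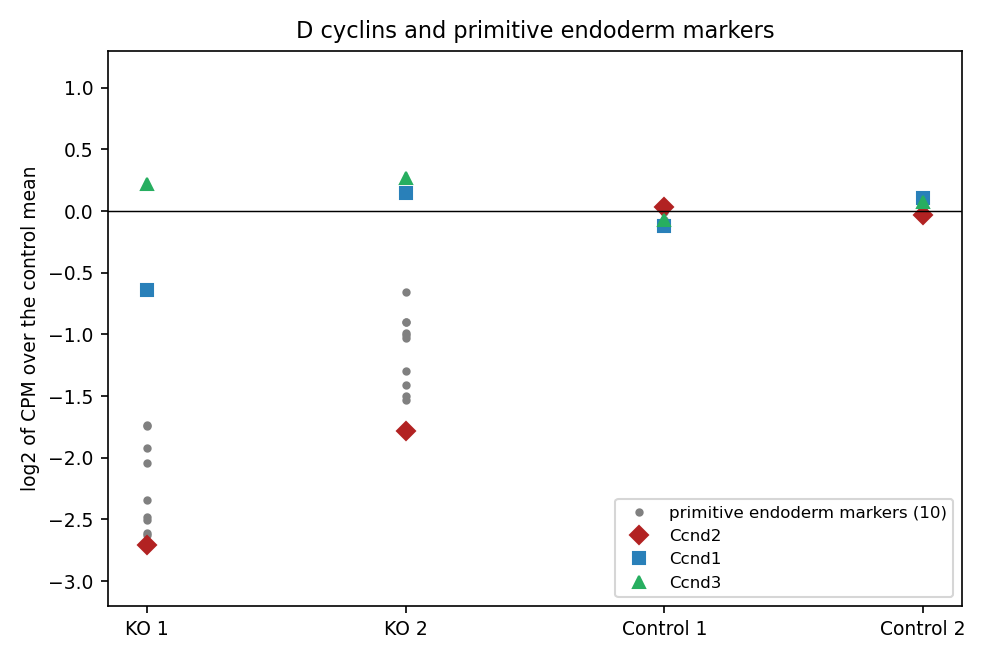
Log2 of CPM over the control mean (vertical axis) in each library for the D cyclins and 10 primitive endoderm markers (grey points). Ccnd2 and all 10 markers lie below 0 in both libraries labelled KO and lower in replicate 1, where Ccnd2 is at -2.71, than in replicate 2, where it is at -1.78.

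Markers of other cell types were read from the same fit. Over all tested genes 5.76% rose and 8.57% fell. Of the 9 tested trophoblast markers 5 fell (55.6%), with sums of 106 and 160 CPM in the libraries labelled KO, against 275 and 277 CPM in the controls. Among the 5, Krt8, Krt18 and Hand1 were below both controls and lowest in the library labelled KO replicate 1, as Ccnd2 was. Krt8 had 12.9 and 32.1 CPM there and in replicate 2, against 75.1 and 74.6 CPM in the controls. Krt7 also fell but was lower in replicate 2, at 7.33 and 6.77 CPM. Of the 7 tested markers of the 2-cell-like state 6 rose (85.7%), with sums of 29.2 and 22.7 CPM in the libraries labelled KO, against 8.61 and 8.91 CPM in the controls. The fibroblast markers had sums of 1105 and 1073 CPM in the libraries labelled KO, against 917 and 912 CPM in the controls, almost all of it Fn1 and Vim. These moved in opposite directions, with Fn1 higher (log2 fold change 0.41, edgeR adjusted p = 0.0275) and Vim lower (-0.45, edgeR adjusted p = 0.0325), and no other tested marker of the 6 on that list was called. Col3a1, Twist2, Prrx1 and S100a4 did not pass the filter on low counts. Mesoderm markers summed to 11.2 and 12.5 CPM in the libraries labelled KO, against 10.3 and 12.1 CPM in the controls. None of the 3 tested was called by edgeR, DESeq2 or limma-voom, 0 passed an unadjusted p under 0.05, and Msgn1 had no count in any library. Neuroectoderm markers summed to 13.3 and 14.4 CPM in the libraries labelled KO, against 20.4 and 20.8 CPM in the controls. Of the 3 tested, Sox1 rose (log2 fold change 1.03, edgeR adjusted p = 0.0358) and Nes fell (-0.96, edgeR adjusted p = 0.0151). The part of these markers in the values of the cyclins was not tested.

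E cyclins bind CDK2 at the passage into S phase, and Ccne1 is the main E cyclin message of these cells. Ccne2, on chromosome 4 at 11191351 to 11204779, had 15.0 and 13.4 CPM in the libraries labelled KO, against 23.7 and 26.3 CPM in the controls. The groups did not overlap, and the libraries of each group lay close together. The log2 fold change was -0.82 ± 0.13 (SE, n = 2 each), with a 95% interval of -1.12 to -0.51 and an edgeR adjusted p of 0.0152. Its transcript has a GC content of 36.3%, in the quintile whose median log2 fold change was -0.22. With an offset for GC content the log2 fold change was -0.42 and the call ended (edgeR adjusted p = 0.0699), as it did without control replicate 2 (log2 fold change -0.74, edgeR adjusted p = 0.0880). Exons of Ccne2 overlap 609 bases of exons of Ints8, an Integrator complex gene on the opposite strand. Ints8 had 78.3 and 58.4 CPM in the libraries labelled KO, against 88.0 and 85.0 CPM in the controls, and did not pass the test (log2 fold change -0.34, edgeR adjusted p = 0.151). The kit keeps strand, but no source used here gives the setting used in counting. Of the other 9 genes only Ccne1 has no exon overlapping an opposite-strand exon in GENCODE M21. For the rest the overlap was 34 to 1100 bases for each such gene, and for Ccnd2 it was 372 and 368 bases, with the antisense genes Gm43126 and 9330179D12Rik, which had 0 or 1 counts in each library.

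Ccne1, on the minus strand of chromosome 7 at 38097984 to 38107534, had 125 and 174 CPM in the libraries labelled KO, against 135 and 156 CPM in the controls. The library labelled KO replicate 1 was the lowest of the 4 and the library labelled KO replicate 2 the highest. Its log2 fold change was 0.043 ± 0.16 (SE, n = 2 each), with a 95% interval of -0.35 to 0.43 and an edgeR adjusted p of 0.876. With the library labelled KO replicate 1 left out it was 0.26. With the library labelled KO replicate 2 left out it was -0.22. Ccne2 made up 8.34% and 5.52% of the E cyclin messages per exon length in the libraries labelled KO, against 11.7% and 11.4% in the controls. The summed level of the E cyclins was 51.4 and 69.3 CPM per kilobase in the libraries labelled KO, against 57.7 and 66.0 in the controls.

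Cyclin A2, which takes over CDK2 in S phase and CDK1 later, was among the most abundant of the 10 messages. Ccna2, on the minus strand of chromosome 3 at 36564865 to 36572150, had 251 and 268 CPM in the libraries labelled KO, against 231 and 245 CPM in the controls. The separation was small, and the log2 fold change of 0.12 ± 0.08 (SE, n = 2 each) did not pass (95% interval -0.08 to 0.32, edgeR adjusted p = 0.352).

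Of the kinases, Cdk4 rose. Its protein is the main partner of D cyclins where CDK6 is scarce. Cdk4, on chromosome 10 at 127063534 to 127067920, had 424 and 515 CPM in the libraries labelled KO, against 329 and 349 CPM in the controls. The groups did not overlap, and the library labelled KO replicate 2 was the highest. The log2 fold change was 0.47 ± 0.11 (SE, n = 2 each), with a 95% interval of 0.20 to 0.74 and an edgeR adjusted p of 0.0420. The call ended without control replicate 1 (edgeR adjusted p = 0.266), without control replicate 2 (edgeR adjusted p = 0.138) and without the genes of chromosome 11 (edgeR adjusted p = 0.0632). With the library labelled KO replicate 2 left out the value was 0.32. The offset for GC content gave 0.38. Exons of Cdk4 overlap 641 bases of exons of Tspan31 on the opposite strand, a tetraspanin gene with 49.3 and 51.3 CPM in the libraries labelled KO, against 47.4 and 45.2 CPM in the controls (log2 fold change 0.12, edgeR adjusted p = 0.397). The genes nearest to Cdk4 by the same distance over 4 libraries were Proser3, Igfbp2, an IGF-binding protein gene, and Mepce, a capping enzyme gene of 7SK RNA, at 0.016, 0.024 and 0.026 log2 units.

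Since Cdk4 was the gene that rose, the 250 bases before its start site are shown beside those of Cdk6, which shares its cyclin partners. The sequences come from RefSeq (GRCm38.p6), where Ccnd3, Ccne1, Cdk2, Cdk4 and Cdk6 were matched by symbol. Ccnd1, Ccnd2, Ccne2, Ccna2 and Rb1 are named only. Capitals mark CACGTG, the E-box bound by MYC family proteins, searched on both strands of this palindromic word with no overlap with the other words searched. The window of Cdk4 is chr10:127063285-127063534 on the plus strand, and that of Cdk6 is chr5:3343643-3343892 on the plus strand. Start sites are those of RefSeq and can differ from the GENCODE M21 positions given for the genes. The window of Cdk6 lies inside its GENCODE M21 gene, which starts at 3341485, and that of Ccne1 overlaps its gene in part.
Cdk4: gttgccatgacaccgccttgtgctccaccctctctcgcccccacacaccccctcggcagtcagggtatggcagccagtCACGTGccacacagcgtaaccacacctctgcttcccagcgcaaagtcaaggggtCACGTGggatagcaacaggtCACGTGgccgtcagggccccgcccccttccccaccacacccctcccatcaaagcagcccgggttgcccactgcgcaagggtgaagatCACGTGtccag
Cdk6: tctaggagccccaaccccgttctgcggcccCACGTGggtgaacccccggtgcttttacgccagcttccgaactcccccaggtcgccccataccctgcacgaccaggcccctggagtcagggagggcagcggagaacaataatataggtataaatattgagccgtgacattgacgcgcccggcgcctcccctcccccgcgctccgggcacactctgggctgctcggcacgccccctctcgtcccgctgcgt
The window of Cdk4 holds 4 E-boxes and that of Cdk6 holds 1. Of 32851 promoter windows of this length, 6.02% held at least 1 E-box, and 7 windows (0.0213%) held 4 or more. An E2F word (TTTCCCGC, TTTCGCGC, TTTGCCGC or TTTGGCGC, either strand) was present in the window of Cdk2 and in none of the others shown or matched, and in 1.86% of all windows. The cyclic AMP word TGACGTCA, the AP-1 word TGACTCA and the cell cycle word TTTGAA were in none of the windows of the 5 matched genes, against 1.55%, 4.46% and 16.0% of all windows. All windows were taken as background without matching for GC content, which was 64.4% for Cdk4 and 66.0% for Cdk6, against a median of 52.4%. A match is a description of these letters and not a bound site. Log2 fold changes of Myc, Mycn and Max were -0.13, 0.09 and 0.02, none called, and their part in the value of Cdk4 was not tested. The title of the series concerns unmethylated CpG islands, which these libraries do not measure. The windows of Cdk4 and Cdk6 held 13 and 22 CpG dinucleotides, that of Cdk2 held 21 and that of Ccne1 held 34, and those of Ccnd3 held 11 and 19 at its 2 start sites, against a median of 6 and an upper quartile of 16 over all windows.

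The other kinases did not pass the test. Cdk6, on chromosome 5 at 3341485 to 3531008, had 48.1 and 45.1 CPM in the libraries labelled KO, against 39.2 and 42.4 CPM in the controls, a log2 fold change of 0.19 ± 0.10 (SE, n = 2 each) with an edgeR adjusted p of 0.219. Cdk2, the partner of cyclins E and A2, lies on the minus strand of chromosome 10 at 128697939 to 128705031. It had 114 and 129 CPM in the libraries labelled KO, against 112 CPM in both controls, a log2 fold change of 0.12 ± 0.09 (SE, n = 2 each) with an edgeR adjusted p of 0.416. For both genes the libraries labelled KO lay above the controls, for Cdk2 by little in replicate 1. The summed level of Cdk4 and Cdk6 was 134 and 162 CPM per kilobase in the libraries labelled KO, against 104 and 110 in the controls, and Cdk6 made up 2.57% and 1.99% of it in the libraries labelled KO, against 2.69% and 2.74% in the controls.

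Rb1 encodes the pocket protein that D and E cyclin kinases inactivate. Rb1, on the minus strand of chromosome 14 at 73183673 to 73325822, had 47.6 and 29.9 CPM in the libraries labelled KO, against 49.4 and 42.6 CPM in the controls. Its level in the library labelled KO replicate 1 lay between the controls, and that in replicate 2 lay below both. The log2 fold change was -0.25 ± 0.21 (SE, n = 2 each), with a 95% interval of -0.76 to 0.27 and an edgeR adjusted p of 0.460. Leaving out the library labelled KO replicate 1 gave -0.62, and leaving out the library labelled KO replicate 2 gave 0.048. Its transcript has a GC content of 41.2%, in the lowest quintile, and with the offset the log2 fold change was -0.036. Exons of Rb1 overlap 488 bases of exons of Rcbtb2 and 408 of Lpar6, both on the opposite strand. Lpar6 had 14.4 and 7.09 CPM in the libraries labelled KO, against 12.3 and 10.4 CPM in the controls. Rcbtb2 had 15.0 and 13.6 CPM, against 19.7 and 18.4 CPM. Neither was called, and the part of these overlaps in the count of Rb1 was not tested.

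**Figure D4:**
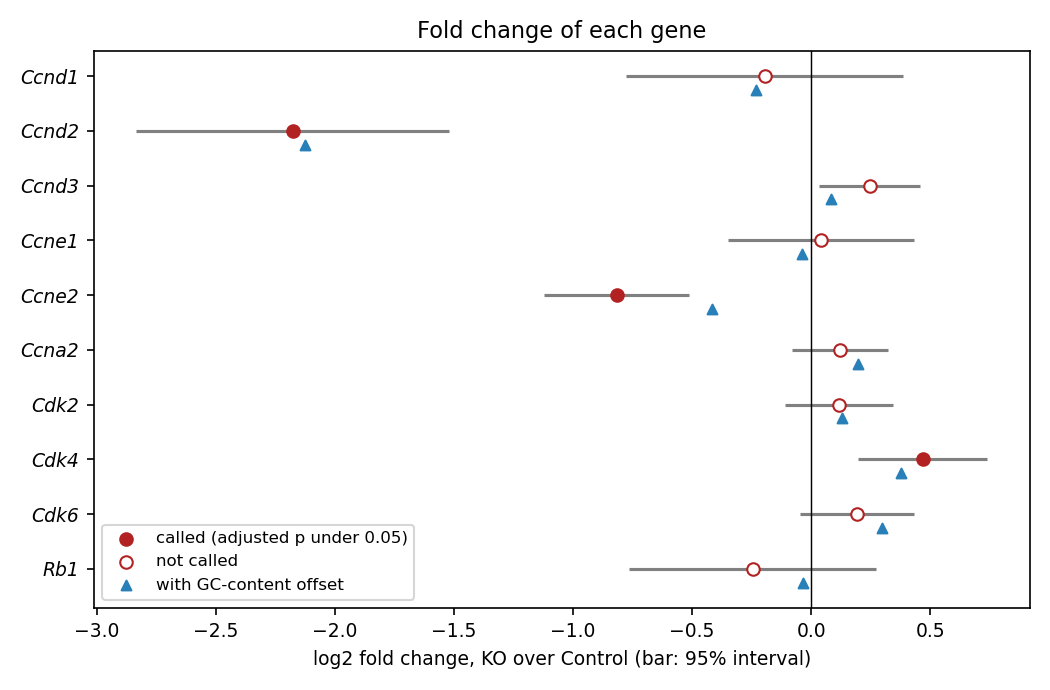
Log2 fold change, KO over control (horizontal axis), of the 10 genes with 95% intervals, filled where the edgeR adjusted p was under 0.05, and the same value with an offset for GC content (triangles). Ccne2 is at -0.82 and at -0.42 with the offset, while Ccnd2 is at -2.18 and at -2.13.

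The authors' deposited table gives the same 3 genes the smallest adjusted p-values of the 10. In the authors' deposited table Ccne2 has a log2 fold change of -0.74 (adjusted p = 0.000124) and Cdk4 of 0.45 (adjusted p = 0.00591). The adjusted p-values of the other 7 genes in the authors' deposited table lie between 0.178 and 0.891.

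Per exon length, Cdk4 was the most abundant of the 10 messages in both groups, at 145 ± 19.9 CPM per kilobase in the libraries labelled KO and 104 ± 4.23 in the controls (SD, n = 2 each). Ccna2 followed at 63.5 ± 3.01 in the libraries labelled KO and 58.4 ± 2.44 in the controls, and Ccne1 at 56.3 ± 13.0 in the libraries labelled KO and 54.7 ± 5.33 in the controls (SD, n = 2 each). Ccna2 and Ccne1 did not differ beyond this spread in either group. Ccnd3 and Cdk2 came next and did not differ from each other beyond their spread, at 20.8 ± 0.483 and 19.5 ± 1.79 in the libraries labelled KO and 17.5 ± 1.23 and 18.0 ± 0.0747 in the controls (SD, n = 2 each). Ccnd1 was at 9.24 ± 3.46 in the libraries labelled KO and 10.6 ± 1.18 in the controls, and Rb1 at 6.44 ± 2.09 in the libraries labelled KO and 7.65 ± 0.803 in the controls (SD, n = 2 each). Ccne2 was at 4.06 ± 0.323 in the libraries labelled KO and 7.15 ± 0.543 in the controls, where it did not differ from Rb1 beyond the spread. The lowest were Cdk6, at 3.33 ± 0.150 in the libraries labelled KO and 2.91 ± 0.161 in the controls, and Ccnd2, at 0.856 ± 0.376 in the libraries labelled KO and 3.86 ± 0.113 in the controls (SD, n = 2 each). Ccnd2 therefore stood above Cdk6 in the controls and below it in the libraries labelled KO. With the length of the longest transcript in place of all exons, Ccnd3 and Cdk2 changed places in the controls.

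Other genes of the pathway were read from 8 lists. Over all 16112 tested genes DESeq2 called 1132 higher and 1519 lower, and limma-voom called 971 higher and 1509 lower. The share of all tested genes at an unadjusted p under 0.05 is not given here. The CDK inhibitors, which block cyclin kinases, had none called by edgeR among 7 tested, in either direction, with a median log2 fold change of 0.14. At an unadjusted edgeR p under 0.05 the list had 1 higher and 0 lower, and DESeq2 and limma-voom called 0. Cdkn1a, the most abundant, had 110 and 103 CPM in the libraries labelled KO, against 123 and 113 CPM in the controls (log2 fold change -0.15, edgeR adjusted p = 0.282). The RB1 relatives and the E2F and DP factors had none called by edgeR among 12 tested, with a median of 0.14. At an unadjusted p under 0.05 there were 2 higher and 1 lower, and DESeq2 called 1 higher and limma-voom 0. E2f4, the most abundant E2F factor gene, had 175 and 236 CPM in the libraries labelled KO, against 157 and 171 CPM in the controls (log2 fold change 0.32, edgeR adjusted p = 0.179). Of the MuvB core, which joins RB1 relatives on cell cycle promoters, none was called by edgeR among 5 tested, with a median of 0.15. There was 1 higher and 1 lower at an unadjusted p under 0.05, and DESeq2 and limma-voom each called 1 lower. Rbbp4, a histone-binding subunit, had a log2 fold change of 0.22 (edgeR adjusted p = 0.108). With the offset for GC content that value was 0.33 and Rbbp4 was called (edgeR adjusted p = 0.0239).

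Genes of S phase that E2F factors are known to switch on had 2 that rose and 1 that fell among 24 tested, or 8.33% and 4.17%, beside 5.76% and 8.57% of all tested genes. Mcm7, a subunit of the replicative helicase, had 392 and 501 CPM in the libraries labelled KO, against 280 and 293 CPM in the controls (log2 fold change 0.64, edgeR adjusted p = 0.0262). Mcm3, of the same helicase, rose by a log2 fold change of 0.43 (edgeR adjusted p = 0.0375), and that call was lost when control replicate 1 or control replicate 2 was left out (edgeR adjusted p = 0.321 and 0.205) and when chromosome 11 was (edgeR adjusted p = 0.0582). For Mcm7 it was lost with control replicate 1 left out (edgeR adjusted p = 0.0608). Both libraries labelled KO lay above both controls for 18 of the 24 genes, among them all 6 Mcm genes, and below both for 3, beside 31.5% and 32.8% of all tested genes. Cdc6, which loads that helicase and lies on chromosome 11, had 76.8 and 98.3 CPM in the libraries labelled KO, against 132 and 134 CPM in the controls (log2 fold change -0.60, edgeR adjusted p = 0.0299). The median log2 fold change of the list was 0.26. At an unadjusted edgeR p under 0.05 the list had 12 higher and 2 lower. The share of all tested genes at that threshold is not given here, and 5.76% and 8.57% are not its background. DESeq2 called 6 higher and 1 lower, beside 1132 and 1519 of all 16112 tested genes. For limma-voom the counts were 2 and 1, beside 971 and 1509.

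Among genes of CDK activation and cyclin turnover 1 rose and 1 fell of 19 tested, or 5.26% each, beside 5.76% and 8.57% of all tested genes, with a median log2 fold change of 0.09. Cdc25b, a phosphatase that activates CDKs, had 49.8 and 45.8 CPM in the libraries labelled KO, against 27.3 and 28.2 CPM in the controls (log2 fold change 0.78, edgeR adjusted p = 0.0108). Skp1a, a subunit of the SCF ubiquitin ligases on chromosome 11, fell by 0.51 on the log2 scale (edgeR adjusted p = 0.0169), a call lost with control replicate 1 or control replicate 2 left out (edgeR adjusted p = 0.0917 and 0.138). Of the G2 and M cyclins and their regulators 1 rose and 1 fell of 14 tested, or 7.14% each, with a median of 0.28. Mybl2, a transcription factor of cycling cells, had 782 and 913 CPM in the libraries labelled KO, against 489 and 516 CPM in the controls (log2 fold change 0.76, edgeR adjusted p = 0.0116). Ccng1, a p53-responsive cyclin gene on chromosome 11, had 579 and 460 CPM in the libraries labelled KO, against 891 and 839 CPM in the controls (log2 fold change -0.74, edgeR adjusted p = 0.0174).

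Of 22 other cyclins and CDKs tested, 3 fell and none rose, or 13.6% lower beside 8.57% of all tested genes, with a median of -0.04. Without chromosome 11, without control replicate 1 or without control replicate 2, 1 fell. With the offset for GC content 2 fell and 1 rose. Neither DESeq2 nor limma-voom called any of them higher, nor was any higher at an unadjusted p under 0.05. The 3 were Cdk12, a transcription kinase gene on chromosome 11 (log2 fold change -0.40, edgeR adjusted p = 0.0244), Cdk14, which acts with cyclin Y in WNT signalling (-1.66, edgeR adjusted p = 0.0307, at 1.12 and 0.509 CPM in the libraries labelled KO, against 2.67 and 2.54 CPM in the controls), and Ccnc, the cyclin of the Mediator kinase. Ccnc passed narrowly (log2 fold change -0.41, edgeR adjusted p = 0.0498) and was at 0.015 with the offset for GC content. Of the 11 alternatives that keep all libraries 4 kept its call, which was lost under each other scaling of edgeR (adjusted p = 0.0515 to 0.0634), with a minimum of 1 CPM (0.0550) and without chromosome 11 (0.0580). With control replicate 1 or control replicate 2 left out, the edgeR adjusted p was 0.233 and 0.304 for Cdk12 and 0.231 and 0.355 for Ccnc. Of 16 genes listed as inducers of D cyclins, 5 fell and none rose, or 31.2%, beside 8.57% of all tested genes that fell. None was higher at an unadjusted p under 0.05 or by DESeq2 or limma-voom. Fosl2, an AP-1 subunit, had 9.46 and 8.51 CPM in the libraries labelled KO, against 34.2 and 34.6 CPM in the controls (log2 fold change -1.93, edgeR adjusted p = 0.00413). Jun, its usual partner, had 31.2 and 21.9 CPM in the libraries labelled KO, against 61.5 and 60.8 CPM in the controls (log2 fold change -1.20, edgeR adjusted p = 0.0126). Stat3, the LIF-responsive factor on chromosome 11, fell by 0.55 on the log2 scale (edgeR adjusted p = 0.0128). The others, named after their values were seen, were Egr1 (-0.68, edgeR adjusted p = 0.0269) and Tcf7 on chromosome 11 (-0.48, edgeR adjusted p = 0.0338). With control replicate 1 or control replicate 2 left out, the calls of Stat3 (edgeR adjusted p = 0.0674 and 0.0758) and Tcf7 (0.106 and 0.222) were lost. Over the 8 lists 6 of the 11 genes that fell lie on chromosome 11, where 40.5% of the 1322 tested genes fell, and none of the 4 that rose.

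**Figure D5:**
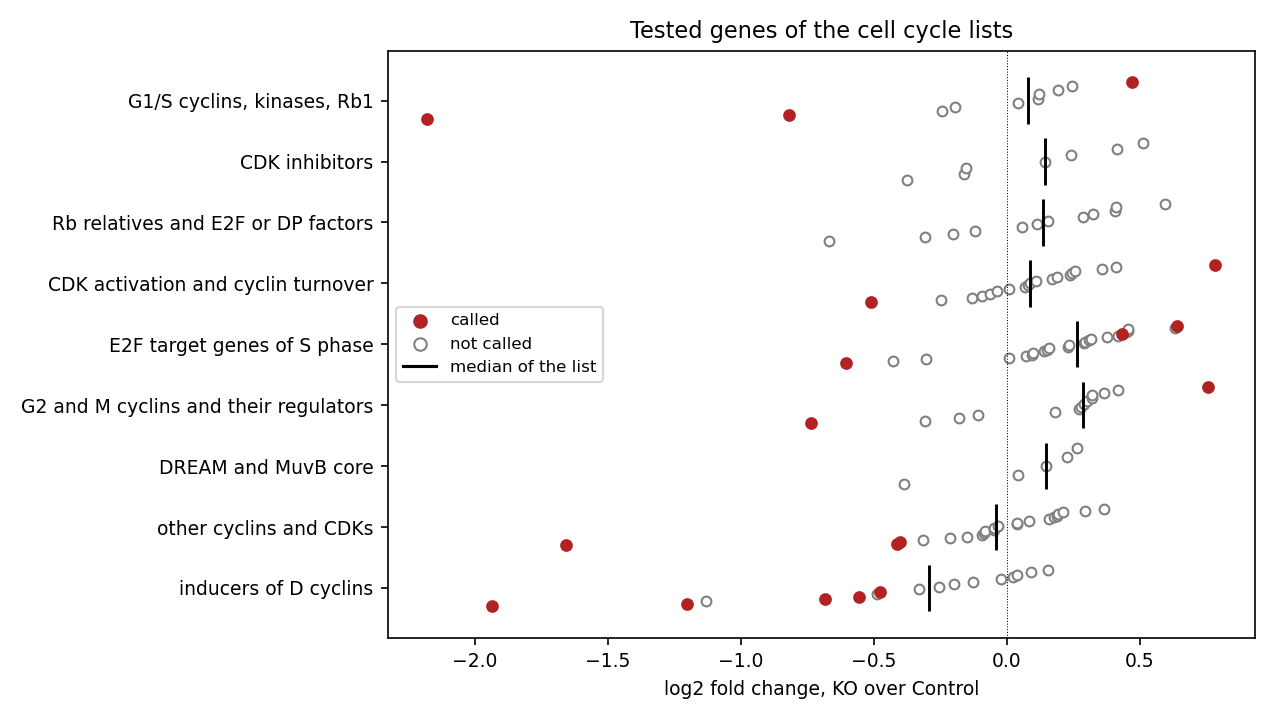
Log2 fold change, KO over control (horizontal axis), of the tested genes of each list, with the 10 genes described at the top, called genes filled and a bar at each median. The medians run from -0.29 for the inducers of D cyclins to 0.28 for the G2 and M cyclins.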

How the data were processed

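Polyadenylated RNA of E14TG2a cells was sequenced in 4 libraries, 2 labelled KAT6A KO and 2 labelled Control, with groups and replicate numbers taken from the sample titles. The library kit was TruSeq Stranded mRNA, per the labels' protocols. The deposited tables hold whole-number read counts, 1 row a symbol, and featureCounts and DESeq2 are named, with no version, per the submitters' processing notes. No source used here names the aligner, the build, the annotation or the strand setting. The authors also deposited normalized counts (a signal equal to the counts divided by 1 factor per library) and their own comparison. That table has no header, and its columns were read by their values as the authors' mean signal, log2 fold change with its standard error, Wald score, p-value and adjusted p-value.

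The main test was edgeR 4.0.16 (R 4.3.3), in its robust quasi-likelihood form, with filterByExpr by group, TMM scaling and group as the sole term. Calls required a Benjamini-Hochberg adjusted p under 0.05. Standard errors come from the F statistic, and 95% intervals of fold changes are per gene and unadjusted. CPM uses the scaled library sizes. Positions, exon lengths and transcript GC content were taken from GENCODE M21 (GRCm38), which held 97.3% of the symbols. Replicates differed by more than sampling noise (mean chi-square per gene 34.4 for the libraries labelled KO and 3.70 for the controls). The procedure was tested on simulated data.

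Alternatives were other scalings and filters, DESeq2 1.42.0, limma-voom 3.58.1, a replicate block, a GC-content offset (lowess span 0.3), both together, removal of chromosome 11, and removal of each library in turn, which assumes that the lone library left in a group varies like the other group. The libraries labelled KO differed more from each other than the controls did. Calls in the fits with 1 library left out therefore do not measure the spread of the group left with 1. The length of the longest transcript was added after seeing the data. The genes and lists were chosen with earlier results of these data known. Named from each list were up to 3 called genes per direction by adjusted p, or the most abundant where none was called. Also named were the 3 genes nearest to the called gene with the largest rise and to that with the largest fall, over genes averaging 1 CPM or more with a count in every library. Python 3.11.15 with pandas 2.3.3 and matplotlib 3.10.9 prepared tables and plots.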

Additional observations from a re-analysis of the deposited data

How the results depend on the processing

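Ccnd2 stayed called under all 11 alternatives that keep all libraries, with log2 fold changes of -2.26 to -2.13. Over all genes, 1613 rose and 2147 fell with the replicate block, and 519 and 697 without chromosome 11. With 1 library left out, 254 to 4020 rose and 648 to 4400 fell. Of the 10 genes, 0 rose without chromosome 11 and 0 to 5 with 1 library left out. With the GC-content offset 1 fell, and 1 to 4 did with 1 library left out. Cdk4 without chromosome 11 had a log2 fold change of 0.44 and Ccne2 with the GC-content offset had -0.42, neither called. Ccne1 turned to -0.037 with the GC-content offset and -0.047 with the offset and the block, never called. Ccnc turned to 0.015 with the offset and 0.014 with the offset and the block. With both, Ccne2 was at -0.42 and called (edgeR adjusted p = 0.0421). With 1 library left out, log2 fold changes ran from -0.64 to 0.14 for Ccnd1, 0.17 to 0.32 for Ccnd3, -0.22 to 0.26 for Ccne1, -0.90 to -0.74 for Ccne2, 0.069 to 0.17 for Ccna2, 0.018 to 0.21 for Cdk2, 0.32 to 0.60 for Cdk4, 0.13 to 0.25 for Cdk6, -0.62 to 0.048 for Rb1 and -0.74 to 0.75 for Kat6a. The KO minus control difference in the share of Ccnd2 among D cyclins was -9.40 percentage points per exon length, -11.8 with raw counts and -7.69 with the longest transcript. That of Cdk4 in its pair was 0.435 and 1.61 points with raw counts. Same-numbered libraries did not deviate together (r = 0.085 across genes), so they were not treated as pairs. Of the 24 E2F targets 10 rose with the replicate block, beside 1613 of all genes in that fit. With the block and the offset 11 rose, beside 1214 of all genes that rose and 1774 that fell. Of the 12 RB1 relatives and E2F or DP factors, 4 rose with the block and 2 with the block and the offset. With the offset alone 1 rose, as 1 did without the low-count filter, beside 808 and 1223 of all genes. None of the 12 fell in these fits. The block ended no call of the 10 genes and added none. Except where an alternative itself leaves out genes or libraries, the cause of a change was not tested. The lowest count of the 10 genes was 169. The parts of depth and of the spread between 2 libraries in their precision were not separated.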
